A study of Mus musculus with 23 samples.

Results

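The solute carrier (SLC) genes described here belong to the 8 families Slc1a, Slc3a, Slc6a, Slc7a, Slc15a, Slc36a, Slc38a and Slc43a, most of whose proteins carry amino acids or small peptides across membranes. A gene was taken if its platform symbol begins with one of these names. That gave 68 genes with 133 probe sets, of 18193 genes that the array annotation names by a single symbol. Of these 68 genes, 41 were bright enough to be tested among the 12463 genes tested in all, and 27 were not. The name does not always give the cargo: Slc6a4 carries serotonin, Slc6a8 creatine and Slc43a3 purine nucleobases. Of the symbols, Slc7a6os, Slc36a1os and Slc6a19os belong to neighbouring opposite-strand genes and are no carriers. Among them Slc7a6os was tested, and it is counted below with the 41 carrier genes and in the Slc7a family.

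RNA of colon tissue, of a segment not given in the sources used here, was hybridised to 23 Affymetrix mouse arrays, 1 per animal. All mice were of the inbred strain C57BL/6J and aged 12 to 14 weeks. The treatment was dextran sulfate sodium (DSS), which damages the lining of the colon, at 3% of the drinking water. The groups were mice after 2, 4 or 6 days of DSS (n = 6 each) and untreated mice at day 0 (n = 5), and each day is a different set of animals.

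The values are signal intensities on a linear scale, and a probe set's brightness depends on its sequence, so no gene's level is set against another's. Array medians lay between 97.3 and 121, and the number of arrays limits the precision. Without the highest and lowest 2% of probe sets, the mean signal was 500.00 on every array. Each rise or fall is thus relative to that common mean. Most arrays, those of day 0 included, held RNA of neighbouring tissue, in differing amounts. The summed signal of 4 pancreatic acinar markers was 106277 on day 2 mouse 6 and 29600.5 on day 6 mouse 1, and at most 11659 on the other 21 arrays. Squamous epithelium markers summed to 654 on day 2 mouse 8 and 877 on day 4 mouse 8, and to at least 6330.2 on the other 21 arrays. Those of skeletal muscle summed to 1382 and 1289 on the same arrays, and to between 3548 and 77004 on the others. As markers of the labelled tissue, all 10 pan-epithelial and all 12 absorptive colonocyte genes were bright enough to be tested. Spiked hybridization controls averaged 10.90 ± 0.19 on the log2 scale at day 6 and 11.02 ± 0.12 at day 4, against 11.42 ± 0.061 at day 0 (SD, n = 6, 6 and 5), and no day 6 array reached the lowest of day 0. The log2 ratio of 3' to 5' probe sets, a sign of RNA quality, moved with the days as well: for actin it was 0.475 to 0.588 at day 6 and 0.526 to 0.703 at day 4, against 0.399 to 0.446 at day 0, and for Gapdh it was -0.295 to -0.194 at day 6 and -0.270 to -0.183 at day 4, against -0.463 to -0.325 at day 0. Its part in the changes of the carriers was not tested.

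Amino acids and short peptides enter epithelial cells through carriers of the brush border, coupled to sodium, protons or the exchange of other amino acids, and leave through exchangers and uniporters of the basolateral side. Some Slc7a proteins are light chains that reach the membrane only when joined to a heavy chain of the Slc3a family. Other members sit on lysosomes, where they release the products of protein breakdown, or serve immune cells, which take up more leucine, arginine and glutamine when they are activated.

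At day 6 against day 0, 13 of the 41 carrier genes rose (31.7%) and 11 fell (26.8%), beside 18.1% and 14.3% of all genes tested. Passing means an adjusted p of at most 0.05 in limma's test, fitted over all 4 days. Of the 13 rises, 7 were among the 10 tested genes of the Slc7a family, of which 1 fell, and of the 11 falls, 5 were among the 9 of Slc6a, of which none rose. Markers of other cells moved with these counts: all 8 fibroblast genes rose at day 6 (summed signal 56023 to 91727 at day 6 against 38678 to 47287 at day 0), as did 4 of 10 squamous epithelium genes (19652 to 43339 at day 6 against 6330.2 to 11226 at day 0). Neither sum overlapped between these days, and their part in the counts was not tested. At day 4 against day 0, 7 carrier genes rose (17.1%) and 2 fell (4.88%), beside 12.1% and 4.32% of all genes. Those shares were thus close to the background at day 4. At day 2 no carrier gene passed, beside 0.016% of all genes that rose and 0.0642% that fell. There 4 carrier genes had an unadjusted p under 0.05 (9.76%), against 12.8% of all genes.

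**Figure D1:**
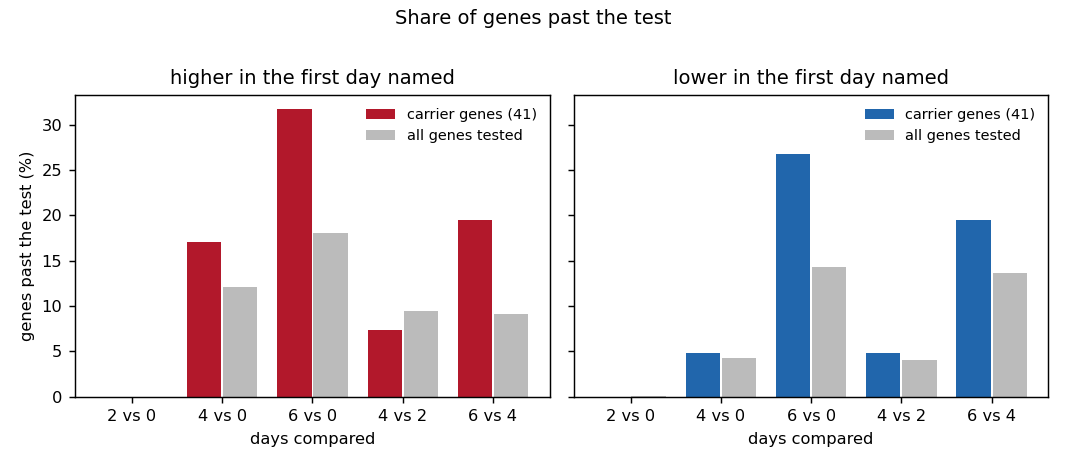
Share of genes past the test in each comparison of days, higher (left) and lower (right), in percent. Coloured bars are the 41 tested carrier genes and grey bars all 12463 genes tested; the largest gap is at day 6 against day 0, with 31.7% against 18.1% higher and 26.8% against 14.3% lower.

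Between consecutive days, 3 carrier genes rose and 2 fell at day 4 against day 2, beside 9.44% and 4.09% of all genes. At day 6 against day 4, 8 rose and 8 fell (19.5% each), beside 9.09% and 13.7%. In all, 29 of the 41 genes passed in at least 1 of the 5 comparisons and 26 passed against day 0. Of those 26, 17 passed at day 6 alone, 2 at day 4 alone, 6 were higher on both days and 1, Slc6a7, was higher at day 4 and lower at day 6. With the hybridization control level of each array in the fit, 6 carrier genes passed at day 6 and none at day 4 (2 higher and 4 lower); that level moved with the days, and its part in the calls was not tested further. These are whole-tissue samples, in which fewer cells of a type and less RNA per cell cannot be told apart.

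**Figure D2:**
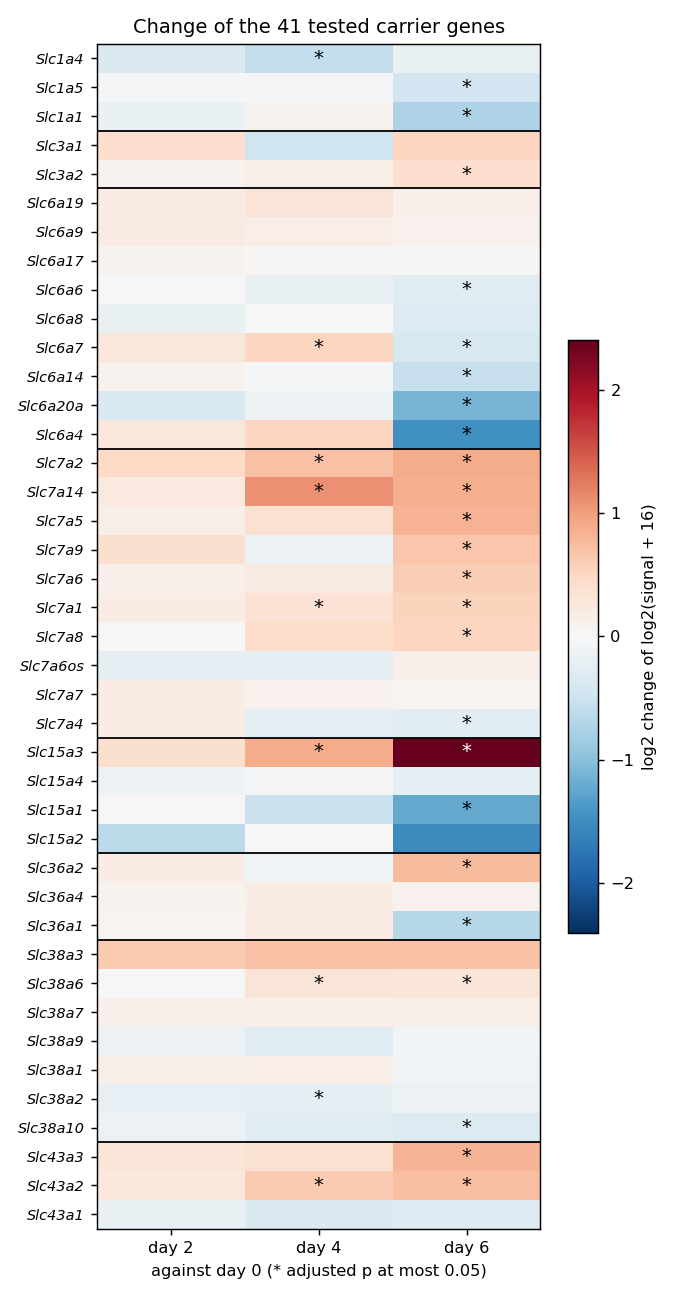
Change of the 41 tested carrier genes at day 2, day 4 and day 6 against day 0, as the difference of mean log2(signal + 16), in rows grouped by family (black lines) and ordered within a family by the change at day 6. Stars mark an adjusted p of at most 0.05; there are none at day 2, 9 at day 4 and 24 at day 6, and the darkest cell is Slc15a3 at day 6 (2.38).

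The peptide carriers moved in opposite directions. Slc15a3, which carries histidine and small peptides across the membrane of lysosomes and is known from macrophages and dendritic cells, ranged over 273, 363 and 678 (lowest, median and highest) at day 6 and over 94.9, 138 and 173 at day 4. Its signals at day 0 were 59.3, 70.1, 64.9, 63.5 and 61.7. These lay below the lowest array median (97.3), so that Slc15a3 was bright enough to be tested only through the later days. All arrays of day 4 and of day 6 thus lay above all of day 0, and those of day 6 above those of day 4. Slc15a3 rose 5.21-fold at day 6 (log2 change 2.38, SE 0.21, adjusted p = 3.58e-08) and 1.86-fold at day 4 (0.89, SE 0.21, adjusted p = 0.00659), the largest rise of the 41 genes at day 6. Day 6 was also 2.81-fold above day 4 (adjusted p = 2.11e-05).

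Markers of macrophages moved with Slc15a3. All 11 of 11 macrophage genes rose at day 6 and 4 at day 4, and their summed signal was 24806 to 48808 at day 6 and 15937 to 25037 at day 4, against 11605 to 16758 at day 0. Of 6 tested neutrophil genes out of 11 listed, 5 rose at day 6, with a summed signal of 2306 to 13473 at day 6 against 307 to 758 at day 0. On day 6 mouse 21 both sums and Slc15a3 were highest among the day 6 arrays, and on day 6 mouse 3 all were lowest. The part of these cells in the rise was not tested.

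Slc15a1, the proton-coupled brush border carrier of di- and tripeptides, fell. Its signals were 204, 378 and 535 (lowest, median and highest) at day 6, against 708, 816, 953, 874 and 779.9 at day 0. No array of day 6 reached the lowest of day 0. The fall was to 0.426 times the day 0 level (log2 change -1.23, SE 0.32, adjusted p = 0.00494). At day 4 the signals of Slc15a1 spread over 170.5 to 1023, and the change did not pass (-0.52, adjusted p = 0.281). The lowest of these was day 4 mouse 4, which also had the lowest colonocyte marker sum of that day; without it, Slc15a1 passed at day 6 against day 4 (-1.03, adjusted p = 0.00334), where it did not with all arrays. Absorptive colonocyte markers fell for 5 of 12 genes at day 6, with a summed signal of 85122 to 120407 at day 6 against 119899 to 129396 at day 0, and their part in the fall was not tested.

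Slc15a2, a higher-affinity carrier of the same peptides, spread so widely within days that its change of -1.53 at day 6 (SE 0.68) did not pass (adjusted p = 0.0894). Its signals were 19.9, 327 and 647 (lowest, median and highest) at day 6, against 910.1, 264, 330.3, 455 and 1114 at day 0. The days overlapped. Without the pair of arrays that held pancreatic RNA it passed (-1.90, adjusted p = 0.0392). It also passed without day 6 mouse 1 alone, its highest array of that day (-1.90, adjusted p = 0.0348). The other kept probe sets of Slc15a2 changed by -0.17 and -0.35 at day 6. Neither passed with each probe set tested (adjusted p = 0.627 and 0.493). Slc15a4, the close relative of Slc15a3 on endosomes and lysosomes, changed by -0.21 at day 6 and did not pass (adjusted p = 0.214).

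**Figure D3:**
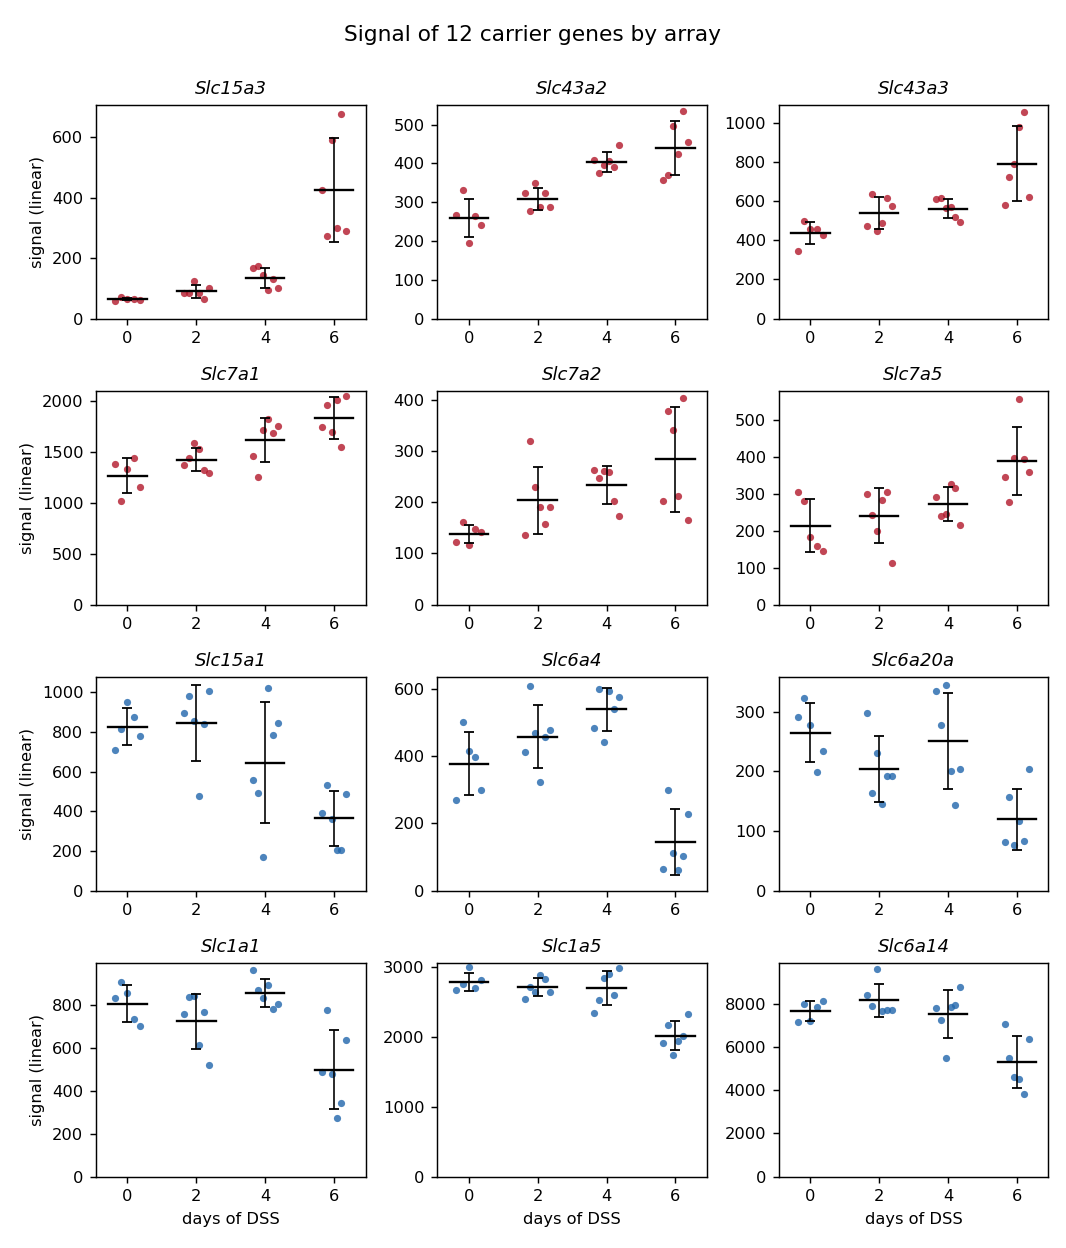
Signal of 12 carrier genes on each of the 23 arrays by days of DSS (points), with the mean (bar) and SD of each day; the vertical axis is linear and starts at 0. The upper 6 genes (red) rose and the lower 6 (blue) fell at day 6; Slc15a3 separates day 6 from every other day, while the mean of Slc6a4 is lowest at day 6 and highest at day 4.

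The heavy chains and their light chains followed 2 courses. Slc3a2, the heavy chain also known as the CD98 surface antigen, rose modestly: its signals were 1973, 2169 and 2491 (lowest, median and highest) at day 6, against 1631, 1644, 1727, 1732 and 1529 at day 0. All of day 6 lay above all of day 0 and of day 4. The rise was 1.32-fold against day 0 (log2 change 0.40, SE 0.066, adjusted p = 5.48e-05) and 1.20-fold against day 4 (adjusted p = 0.00345).

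Light chains that pair with Slc3a2 rose for the most part. Slc7a5, the exchanger that brings in leucine and other large neutral amino acids, had signals of 279, 377 and 557 (lowest, median and highest) at day 6, against 304, 279.9, 182, 159.8 and 146 at day 0. The days overlapped through the day 0 arrays of mouse 1 and mouse 2, and the rise was 1.79-fold (log2 change 0.84, SE 0.22, adjusted p = 0.00504). Slc7a6, which exchanges cationic for neutral amino acids, ranged over 376 to 567 at day 6 and 260.0 to 335 at day 0, with no overlap (1.5-fold, adjusted p = 0.000843). It also rose at day 6 against day 4 (1.32-fold, adjusted p = 0.0181), a call lost without day 4 mouse 8 (adjusted p = 0.0506) and without day 6 mouse 7. With each probe set tested, its other kept one rose against day 0 (log2 change 0.42, adjusted p = 0.0363). Against day 4 that probe set did not pass (0.30, adjusted p = 0.143). Slc7a8, a neutral amino acid exchanger of the basolateral side, ranged over 227 to 349 at day 6 and 155 to 252 at day 0 and rose 1.42-fold (adjusted p = 0.0177), but not without day 0 mouse 4 (adjusted p = 0.0559).

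Slc7a7, the basolateral exporter of cationic amino acids, passed in no comparison, with a log2 change of 0.074 at day 6. Its other kept probe set fell at day 4 against day 2 (-0.45, adjusted p = 0.00472 with each probe set tested). With probe sets averaged, Slc7a7 passed there too (-0.26, adjusted p = 0.0337). Slc7a11, the cystine and glutamate exchanger, was not tested: its highest signal was 84.0 and it was above the array median on none of the 23 arrays. Slc7a6os, the opposite-strand neighbour of Slc7a6, rose at day 6 against day 4 alone (0.34, adjusted p = 0.0494), and 18 of the 23 arrays left out singly each ended that call, with an adjusted p of up to 0.126.

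Slc3a1 and Slc7a9 encode the heavy and light chain of 1 carrier, which takes up cystine and cationic amino acids at the brush border in exchange for neutral ones. Both had their highest mean at day 6, which was not tested against day 2. Slc7a9 had signals of 436, 493 and 790.4 (lowest, median and highest) at day 6, 163, 303 and 404 at day 4, and 335, 255, 377, 347 and 309 at day 0. Day 6 lay wholly above day 4 and above day 0. It rose 1.59-fold against day 0 (log2 change 0.67, SE 0.19, adjusted p = 0.00971) and 1.75-fold against day 4 (adjusted p = 0.00269).

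Slc3a1 had signals of 441, 927 and 1359.7 (lowest, median and highest) at day 6, 266, 409 and 751 at day 4, and 526, 873 and 997 at day 2. At day 0 its signals were 717, 412, 678, 490.3 and 729.9. The days overlapped, and no comparison with day 0 passed (log2 change 0.52 at day 6, adjusted p = 0.142, and -0.47 at day 4, adjusted p = 0.24). Between consecutive days Slc3a1 fell to 0.543 times the day 2 level at day 4 (-0.88, SE 0.26, adjusted p = 0.0271) and rose 2.00-fold at day 6 against day 4 (0.997, SE 0.26, adjusted p = 0.00665). The fall at day 4 was lost on leaving out any 1 of 6 arrays, with an adjusted p of up to 0.0772 without day 4 mouse 4; the rise was kept with each array left out. Both partners were highest of all 23 arrays on day 6 mouse 1, 1 of the arrays with pancreatic RNA. Without that array and day 2 mouse 6, both rises at day 6 against day 4 and that of Slc7a9 against day 0 still passed.

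**Figure D4:**
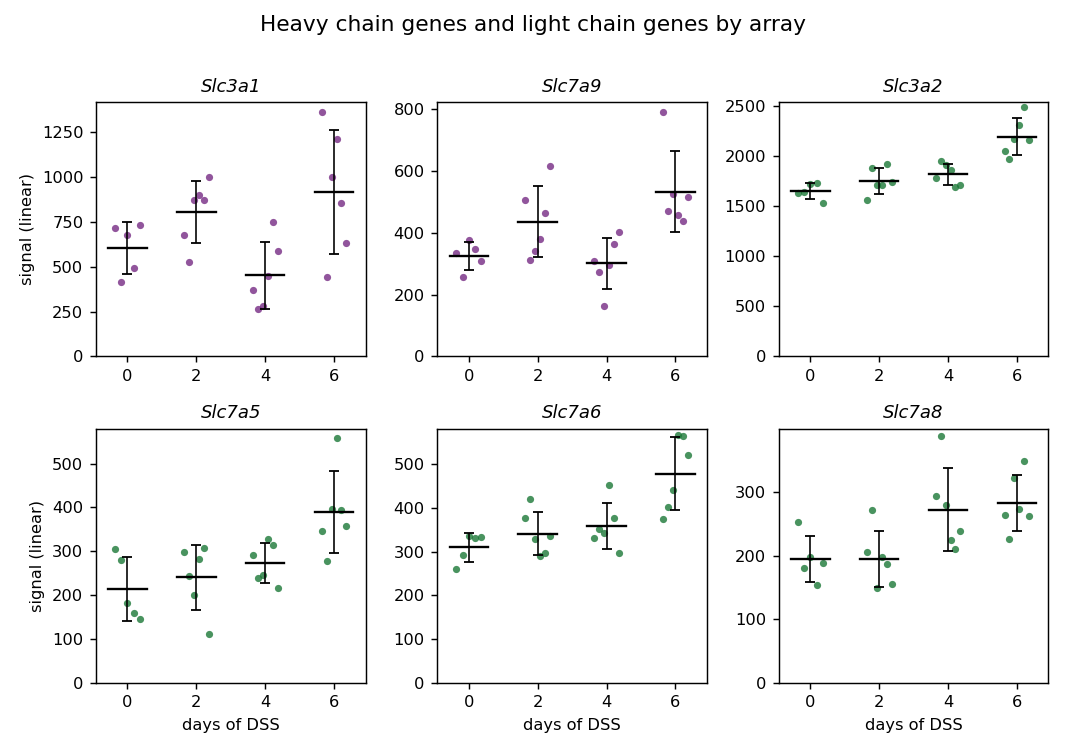
Signal by array and days of DSS for the brush border pair Slc3a1 and Slc7a9 (purple) and for Slc3a2 with its light chains Slc7a5, Slc7a6 and Slc7a8 (green); points are arrays, bars the mean and SD of a day, and the axis is linear from 0. The mean of each purple gene is lowest at day 4 and highest at day 6, though neither passed at day 4 against day 0. The green genes are highest on average at day 6.

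Promoter windows show the sequence at the start of these genes. RefSeq (GRCm38.p6) gave windows from 250 bases before to 50 after a start for 29 of the 41 tested genes, 40 windows in all. They were searched on both strands for 5 motifs: the HNF4 motif CAAAGTCCA, the CARE TTGCATCA that ATF4 binds with a C/EBP factor, the AP-1 motif TGANTCA, the E-box CACGTG and the antioxidant element TGACNNNGC. AP-1 and antioxidant matches can share their first bases. Of 32851 mouse windows, 0.475% held the HNF4 motif, 0.895% the CARE, 7.81% the AP-1 motif, 7.15% the E-box and 12.4% the antioxidant element. The pair of partners is shown because both genes were highest at day 6; the HNF4 match of Slc3a1 (chr17:85028097-85028396, + strand), 39 bases before the start, is in capitals (an AP-1 match lies further upstream), and the window of Slc7a9 (chr7:35448842-35449141, + strand) held none of the 5 motifs.
Slc3a1: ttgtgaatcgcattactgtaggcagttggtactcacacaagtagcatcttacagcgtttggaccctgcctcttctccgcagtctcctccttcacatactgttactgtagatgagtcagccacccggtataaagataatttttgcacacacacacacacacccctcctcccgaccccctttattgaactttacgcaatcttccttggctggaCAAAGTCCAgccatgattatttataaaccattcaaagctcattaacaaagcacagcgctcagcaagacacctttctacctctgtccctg
Slc7a9: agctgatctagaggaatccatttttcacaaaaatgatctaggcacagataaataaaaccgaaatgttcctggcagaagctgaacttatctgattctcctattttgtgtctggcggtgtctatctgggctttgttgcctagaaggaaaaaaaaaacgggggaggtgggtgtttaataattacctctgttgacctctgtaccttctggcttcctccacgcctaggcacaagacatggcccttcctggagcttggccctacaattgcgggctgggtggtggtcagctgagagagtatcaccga

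The cationic amino acid uniporters rose. Slc7a1, the general arginine and lysine carrier, had signals of 1545, 1852 and 2051 (lowest, median and highest) at day 6 and 1251, 1704 and 1821 at day 4, against 1380.4, 1021, 1338, 1445 and 1157 at day 0. Day 6 lay wholly above day 0, and day 4 overlapped it. The rises were 1.45-fold at day 6 (log2 change 0.53, SE 0.10, adjusted p = 0.000324) and 1.27-fold at day 4 (0.35, adjusted p = 0.0232). The rise at day 4 was lost without day 0 mouse 2 (adjusted p = 0.078), day 0 mouse 5 or day 4 mouse 4. A dimmer kept probe set of Slc7a1 changed by 0.18 at day 6 and -0.092 at day 4 and did not pass when each probe set was tested as a feature (adjusted p = 0.103 and 0.467).

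Slc7a2, the arginine carrier induced in activated macrophages and known also from liver and muscle, had signals of 165, 276 and 403 (lowest, median and highest) at day 6 and 174, 254 and 262 at day 4, against 123, 161, 116, 148 and 142 at day 0. All arrays of both days lay above all of day 0. The rises were 1.86-fold at day 6 (log2 change 0.89, SE 0.21, adjusted p = 0.00224) and 1.62-fold at day 4 (0.69, adjusted p = 0.027); the rise at day 4 was lost on leaving out any 1 of 5 arrays, with an adjusted p of up to 0.0672 without day 0 mouse 3. On day 2 its highest array, at 320.0, was mouse 6, the array with the most pancreatic RNA.

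Slc7a14, a lysosomal relative best known from neurons, rose on both days. Its signals were 96.3, 195 and 297 (lowest, median and highest) at day 6 and 143, 223 and 343 at day 4, against 88.3, 91.9, 91.6, 85.3 and 109 at day 0. Day 4 lay wholly above day 0, while day 6 overlapped it. All day 0 signals but 109 lay below the lowest array median (97.3), and all of day 4 lay above the highest (121). The brightness filter thus favoured a rise on the later days. The rise was 2.14-fold at day 4 (log2 change 1.10, SE 0.28, adjusted p = 0.0102) and 1.82-fold at day 6 (0.87, adjusted p = 0.0208), and the rise at day 6 was lost without day 6 mouse 3 (adjusted p = 0.0523). Day 4 was also above day 2 (0.86, adjusted p = 0.0365), a call lost on leaving out any 1 of 8 arrays, with an adjusted p of up to 0.104. With no brightness filter that call was lost too, while both calls against day 0 were kept. Markers of enteric neurons and glia moved likewise: 7 of 9 tested genes rose at day 4 and 6 at day 6, and their summed signal was 2929.6 to 4555 at day 6 and 3243 to 5342 at day 4, against 2465 to 2679 at day 0. Their part in the rise was not tested.

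Slc7a4, a relative for which no amino acid transport is established, went the other way, by -0.43 at day 4 against day 2 (adjusted p = 0.00681) and -0.28 at day 6 against day 0 (adjusted p = 0.0306). The day 6 call was lost on leaving out any 1 of 5 arrays (adjusted p up to 0.0844, without day 0 mouse 3). With each probe set tested, another kept one fell at day 6 (-0.47, adjusted p = 0.013) and the dimmest did not pass (0.22, adjusted p = 0.629). Neither passed at day 4 against day 2 (-0.21 and -0.11, adjusted p = 0.297 and 0.838). With probe sets averaged, both calls of Slc7a4 were lost.

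Among the motifs searched, the window at the more upstream start of Slc7a1 (chr5:148399855-148400154, - strand) held an AP-1 match, in capitals here, 123 bases before that start. It is 1 of 7 such windows among the 40. The same window held an antioxidant element 11 bases before the start.
Slc7a1: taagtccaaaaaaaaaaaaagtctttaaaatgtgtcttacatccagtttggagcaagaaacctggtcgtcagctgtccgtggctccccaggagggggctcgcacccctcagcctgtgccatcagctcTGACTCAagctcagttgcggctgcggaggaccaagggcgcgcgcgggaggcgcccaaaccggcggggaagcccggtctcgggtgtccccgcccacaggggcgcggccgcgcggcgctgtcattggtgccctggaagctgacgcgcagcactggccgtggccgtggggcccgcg

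The Slc43a family rose in 2 of its 3 genes. Slc43a2, a basolateral uniporter of large neutral amino acids, had signals of 357, 439.6 and 534 (lowest, median and highest) at day 6 and 374, 401 and 448 at day 4, against 266, 331, 195, 265 and 241 at day 0. Neither day overlapped day 0. The rises were 1.66-fold at day 6 (log2 change 0.73, SE 0.12, adjusted p = 4.14e-05) and 1.54-fold at day 4 (0.62, SE 0.12, adjusted p = 0.000985), and this was the carrier gene with the lowest adjusted p at day 4. A dimmer kept probe set of Slc43a2 changed by 0.36 at day 6 and 0.33 at day 4 and did not pass when each probe set was tested (adjusted p = 0.152 and 0.223). Day 4 also lay above day 2 (0.38, adjusted p = 0.0279), a call lost on leaving out any 1 of 4 arrays (adjusted p up to 0.0568, without day 4 mouse 4).

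Slc43a3, the nucleobase carrier, had signals of 577, 755 and 1056 (lowest, median and highest) at day 6, against 343, 497, 455, 459 and 425 at day 0, with no overlap. It rose 1.75-fold against day 0 (log2 change 0.81, SE 0.14, adjusted p = 7.7e-05) and 1.37-fold against day 4 (0.45, adjusted p = 0.0138). Endothelial markers rose for 6 of 9 genes at day 6 and 8 of 9 at day 4, with a summed signal of 3586 to 6896 at day 6 and 3806 to 6676 at day 4, against 2519 to 3263 at day 0. At day 4, Slc43a3 did not pass (0.36, adjusted p = 0.075), but it did without day 6 mouse 21 (adjusted p = 0.0495). At day 6 against day 4 none of the 9 markers passed (median change 0.023). The part of endothelial cells in the rise of Slc43a3 was not tested. Slc43a1, another large neutral amino acid carrier, did not pass (-0.32 at day 6, adjusted p = 0.322).

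The sodium-coupled Slc1a carriers fell. Slc1a1, which takes up glutamate and cysteine at the brush border, had signals of 274, 484 and 776 (lowest, median and highest) at day 6 and 785, 854 and 963 at day 4. At day 0 they were 833, 907, 859, 737 and 701. Day 6 lay wholly below day 4 and overlapped day 0 only through its highest array, mouse 3. Slc1a1 fell to 0.596 times the day 0 level (log2 change -0.75, SE 0.18, adjusted p = 0.00265) and to 0.559 times the day 4 level (-0.84, adjusted p = 0.00115). Its other 2 kept probe sets also fell at day 6 (-0.51 and -1.16, adjusted p = 0.041 and 0.00021 with each probe set tested).

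Slc1a5, the glutamine exchanger of dividing cells, had signals of 1738, 1983 and 2335 (lowest, median and highest) at day 6, against 2674, 2756, 3001, 2698 and 2822 at day 0. All of day 6 lay below every array of day 0. It fell to 0.724 times the day 0 level (log2 change -0.47, SE 0.070, adjusted p = 2.43e-05) and to 0.748 times the day 4 level (-0.42, adjusted p = 9.99e-05). With each probe set tested, a dimmer kept one fell at day 4 already (-1.11, adjusted p = 0.0335) and at day 6 (-1.41, adjusted p = 0.00472). At day 6 against day 4 it did not pass (-0.29, adjusted p = 0.609). With probe sets averaged, the call against day 4 was lost, and Slc1a5 passed at day 4 against day 0 (-0.58, adjusted p = 0.0411). At day 6 Slc1a5 thus moved opposite to Slc7a5 and Slc3a2, whose exchange uses the glutamine that Slc1a5 brings in.

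Slc1a4, a carrier of alanine, serine and cysteine, fell at day 4 alone. Its signals were 365, 415 and 503 (lowest, median and highest) at day 4, against 733, 456, 674, 782 and 620.1 at day 0. The days overlapped through day 0 mouse 2. The fall was to 0.665 times the day 0 level (log2 change -0.59, SE 0.19, adjusted p = 0.0316) and was lost on leaving out any 1 of 7 arrays (adjusted p up to 0.0816, without day 0 mouse 4). Its other kept probe sets fell further at day 4 (-1.13 and -1.02, adjusted p = 0.00088 and 0.00284), and 1 of them also at day 6 (-0.70, adjusted p = 0.0168). The promoter of Slc1a4 (chr11:20332664-20332963, - strand) is shown because it held a CARE, in capitals, which starts 4 bases before the start. Of the 29 tested carrier genes with a window, Slc7a7 was the only other with a match to that motif.
Slc1a4: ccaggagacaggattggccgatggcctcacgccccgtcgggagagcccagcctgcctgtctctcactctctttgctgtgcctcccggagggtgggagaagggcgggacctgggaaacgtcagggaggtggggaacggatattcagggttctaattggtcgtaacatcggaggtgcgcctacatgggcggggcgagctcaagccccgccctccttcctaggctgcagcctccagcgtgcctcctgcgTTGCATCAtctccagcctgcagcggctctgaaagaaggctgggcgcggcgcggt

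In the Slc6a family the largest fall was that of Slc6a4, the serotonin carrier that clears this messenger from the gut wall. Its signals were 60.3, 106 and 299 (lowest, median and highest) at day 6 and 440.0, 557 and 600.1 at day 4, against 271, 501, 415, 398 and 298 at day 0. Day 6 lay wholly below day 4, and overlapped day 0 through mouse 3. Slc6a4 fell to 0.362 times the day 0 level (log2 change -1.47, SE 0.27, adjusted p = 0.000226) and to 0.252 times the day 4 level (-1.99, SE 0.26, adjusted p = 1.43e-05), the largest change of any carrier gene between those days. At day 4 against day 0 it changed by 0.52 and did not pass (adjusted p = 0.198). Of 9 enteroendocrine markers, which include Tph1 of serotonin synthesis, 4 rose at day 4 against day 0 (median change of the list 0.30), none passed at day 6 against day 0, and 2 fell at day 6 against day 4. Their part in the fall of Slc6a4 was not tested.

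Slc6a20a, a carrier of proline and other imino acids, had signals of 75.9, 99.7 and 204 (lowest, median and highest) at day 6, against 292, 323, 278, 199 and 234 at day 0. Only day 6 mouse 29 reached into the day 0 range. It fell to 0.463 times the day 0 level (log2 change -1.11, SE 0.24, adjusted p = 0.000904) and to 0.501 times the day 4 level (adjusted p = 0.00264). Its neighbour and near copy Slc6a20b was too dim to be tested, so that shared hybridization could not be examined.

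Slc6a14, a carrier of neutral and cationic amino acids found at the colon surface, had signals of 3834, 5035 and 7034 (lowest, median and highest) at day 6, against 7134, 7972, 7183, 7858 and 8121 at day 0. The days did not overlap. It fell to 0.680 times the day 0 level (log2 change -0.56, SE 0.12, adjusted p = 0.00129), and a second probe set fell alike (-0.55, adjusted p = 0.00171 with each probe set tested). It also fell against day 4 (-0.52, adjusted p = 0.00272).

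Slc6a7, the proline carrier of synapses, was the gene that passed in both directions against day 0. Its signals were 135, 158 and 209.9 (lowest, median and highest) at day 6 and 259, 337 and 400.1 at day 4, against 198, 295, 188, 261 and 184 at day 0. Day 6 lay wholly below day 4, and both overlapped day 0. It rose 1.44-fold at day 4 (log2 change 0.52, SE 0.13, adjusted p = 0.00993) and fell to 0.762 times the day 0 level at day 6 (-0.39, SE 0.13, adjusted p = 0.0272). The fall against day 0 was lost without day 0 mouse 2 (adjusted p = 0.104), day 0 mouse 4 or day 6 mouse 7, while the fall of day 6 against day 4 (-0.92, adjusted p = 2.52e-05) was kept with each array left out.

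Slc6a6, the taurine carrier, fell by 0.30 at day 6 on the log2 scale (adjusted p = 0.0137), but with the hybridization control level in the fit the change of Slc6a6, day 6 against day 0, was 0.060. Its other kept probe sets fell at day 4 against day 0 (-0.48 and -1.24, adjusted p = 0.00323 and 0.044 with each probe set tested). The brighter of these also fell at day 6 (-0.29, adjusted p = 0.0464). With probe sets averaged, Slc6a6 passed at day 4 against day 0 (-0.64, adjusted p = 0.0105). The family's remaining tested genes passed in no comparison: Slc6a8 for creatine (-0.33 at day 6, adjusted p = 0.0924), Slc6a9 for glycine, Slc6a17 of synaptic vesicles, and Slc6a19, the neutral amino acid carrier of the small intestine.

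The proton-coupled Slc36a carriers split. Slc36a1, which moves glycine, alanine and proline out of lysosomes and into epithelial cells, had signals of 411, 875 and 1762 (lowest, median and highest) at day 6, against 1071, 1333, 1734, 1643 and 1418 at day 0. The days overlapped through day 6 mouse 3. It fell to 0.620 times the day 0 level (log2 change -0.69, SE 0.24, adjusted p = 0.0305) and to 0.537 times the day 4 level (adjusted p = 0.00659). The fall against day 0 was lost on leaving out any 1 of 5 arrays (adjusted p up to 0.0824, without day 6 mouse 7), and that against day 4 was kept.

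Slc36a2, a relative with higher affinity, had signals of 67.5, 144 and 169 (lowest, median and highest) at day 6, against 24.7, 84.2, 82.5, 58.9 and 129 at day 0, and the days overlapped. It rose 1.69-fold against day 0 (log2 change 0.76, SE 0.26, adjusted p = 0.0304), which was lost on leaving out any 1 of 6 arrays (adjusted p up to 0.12, without day 0 mouse 1), and 1.81-fold against day 4 (adjusted p = 0.0158). Slc36a2 was bright enough to be tested only through its day 6 arrays. Its highest signals were 129 at day 0, 112 at day 2 and 84.1 at day 4, beside array medians of 97.3 to 121. The brightness filter thus favoured a rise at day 6. Both calls were kept with no filter, but with the filter at the 60th percentile Slc36a2 was not tested. Slc36a4 did not pass in any comparison.

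The Slc38a family of glutamine and neutral amino acid carriers showed small changes. Slc38a6 had signals of 343, 418 and 479 (lowest, median and highest) at day 6 and 381, 424 and 450.2 at day 4, against 375, 324, 283, 366 and 337 at day 0. Day 4 lay above day 0 without overlap. It rose 1.24-fold at day 4 (log2 change 0.31, SE 0.10, adjusted p = 0.0372) and 1.22-fold at day 6 (0.28, adjusted p = 0.0356), and it rose at day 4 against day 2 as well (0.33, adjusted p = 0.0282). Each of the 3 calls was lost on leaving out any 1 of 6 or 7 arrays, with an adjusted p of up to 0.116.

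Slc38a2, a carrier induced when amino acids run short, had signals of 4464, 4850.0 and 5696 (lowest, median and highest) at day 4, against 7159, 5656, 5561, 5464 and 5382 at day 0. The days overlapped, and day 0 mouse 1 stood above its group. The fall to 0.846 times the day 0 level (log2 change -0.24, SE 0.077, adjusted p = 0.0342) was lost without that mouse (adjusted p = 0.123) and without day 4 mouse 6, mouse 7 or mouse 8. Slc38a1 fell at day 6 against day 4 by 0.25 (adjusted p = 0.0432), a call lost on leaving out any 1 of 7 arrays (adjusted p up to 0.112), and with its probe sets averaged the change of Slc38a1, day 6 against day 4, was 0.089.

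Slc38a10, a carrier of glutamine and related amino acids, fell by 0.33 at day 6 on the log2 scale (adjusted p = 0.0108), with all of day 6 below all of day 0. Its probe sets disagreed: with each tested as a feature, another rose at day 4 (0.33, adjusted p = 0.0159) and a dimmer one at day 6 (0.98, adjusted p = 0.0175), and their mean changed by 0.055 at day 6. Slc38a9, the lysosomal arginine sensor, Slc38a7 and Slc38a3 passed in no comparison. Over the 12 tested genes that passed nowhere, the change at day 6 lay between -1.53 (Slc15a2) and 0.70 (Slc38a3).

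The 27 genes too dim to be tested had median signals between 5.06 and 92.3 over the arrays. They include the carriers of glutamate Slc1a2 and Slc1a3, which are known from glia, and most Slc6a carriers of neurotransmitters, namely those of noradrenaline (Slc6a2), dopamine (Slc6a3), glycine (Slc6a5) and betaine or GABA (Slc6a11, Slc6a12, Slc6a13). For these genes no change can be read.

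Single animals of day 6 carried the extremes. Of the 13 genes that rose at day 6, 8 were highest among the day 6 arrays on mouse 21, namely Slc15a3, Slc36a2, Slc38a6, Slc3a2, Slc43a2, Slc43a3, Slc7a2 and Slc7a8, and 5 were lowest on mouse 3. Of the 11 that fell, 6 were highest on mouse 3, so that this animal lay nearest to day 0 for Slc15a1, Slc1a1, Slc36a1, Slc6a4, Slc6a7 and Slc7a4. Mouse 7 was lowest for 4 of the genes that fell. Mouse 21 also had the highest fibroblast marker sum (91727, with a day 6 median of 63472) and the highest squamous one (43339, with a median of 25330.0), and the lowest pan-epithelial sum (97218, with a median of 116461).

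The genes around these carriers were counted in 6 lists. Of 27 tested genes of the amino acid response driven by ATF4, 11 rose and 2 fell at day 6, and 2 rose and none fell at day 4. Beside these and the counts of the other lists stand the shares over all genes, 18.1% higher and 14.3% lower at day 6 and 12.1% and 4.32% at day 4, so that the 2 rises at day 4 are a smaller share than that of all genes. The median change of the list at day 6 was 0.21 on the log2 scale, beside 0.021 over all genes. Cebpb, a transcription factor of inflammation as well as of this response, rose 2.65-fold (adjusted p = 4.08e-06), Eif4ebp1, a brake on translation, 1.87-fold (adjusted p = 1.98e-05) and Chac1, which breaks down glutathione, 1.83-fold (adjusted p = 0.0181). Enzymes of serine synthesis and its use, Psat1, Psph, Shmt2 and Mthfd2, rose by 0.46 to 0.74 on the log2 scale. The falls were Cth (-0.64) and Nupr1 (-0.35), and at day 4 the rises were Eif4ebp1 (0.47) and Eprs (0.30).

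**Figure D5:**
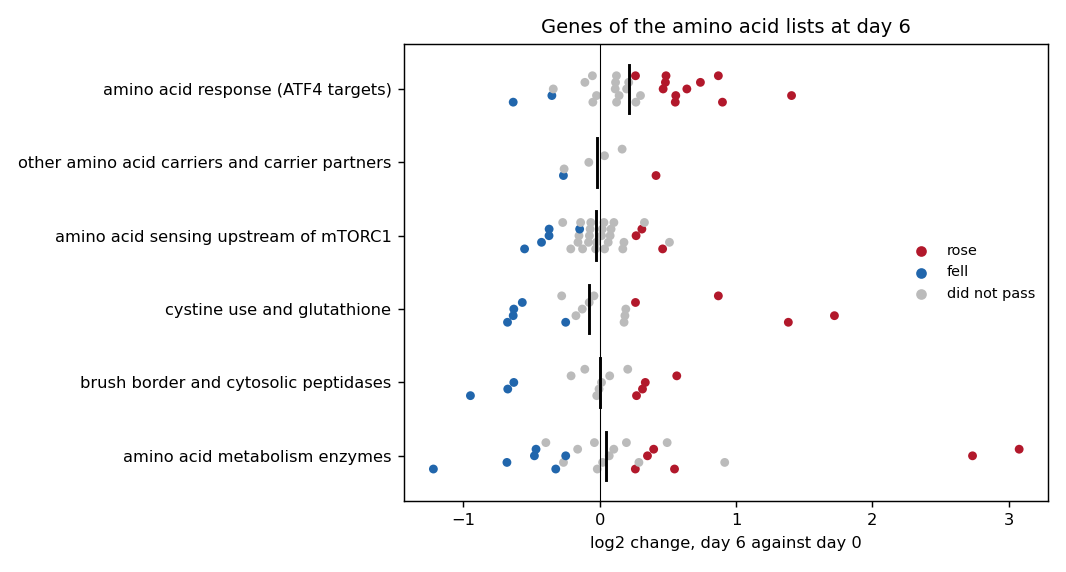
Log2 change at day 6 against day 0 of each tested gene in 6 lists of amino acid genes (points), red where it rose, blue where it fell and grey where it did not pass, with the list's median as a black line. The ATF4 list has its median at 0.21, and the 2 largest rises, Ido1 and Hdc, lie in the list of metabolic enzymes.

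Among 24 tested enzymes of amino acid metabolism, 6 rose and 6 fell at day 6 (all genes 18.1% and 14.3%), and 2 rose (Gatm 0.63, Sat1 0.23) and 1 fell (Bcat2 -0.49) at day 4. The rises were led by Ido1, which breaks down tryptophan (8.44-fold, adjusted p = 2.25e-05), Hdc, which makes histamine (6.66-fold, adjusted p = 1.94e-06), and Gamt of creatine synthesis (1.46-fold, adjusted p = 0.0379). The falls were led by Ddc, which makes serotonin and dopamine from their precursors (0.429 times the day 0 level, adjusted p = 1.63e-07), Gpt2 of alanine metabolism (0.624 times, adjusted p = 0.000841) and Bckdha of branched-chain breakdown (0.717 times, adjusted p = 0.00182). Ddc thus fell together with the serotonin carrier.

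Of 14 tested peptidases of the brush border and cytosol, 4 rose and 3 fell at day 6, beside the same 18.1% and 14.3%. Those that fell make peptides or free amino acids at the brush border: Mep1a (0.518 times the day 0 level, adjusted p = 7.36e-05), Dpp4 (0.626 times) and Dpep1 (0.646 times). Enpep, another brush border peptidase, rose 1.48-fold (adjusted p = 6.42e-05), as did Lap3 (1.26-fold) and Xpnpep1 (1.24-fold) of the cytosol. At day 4 Mep1a fell (-0.61, adjusted p = 0.0106) and Xpnpep1 rose (0.21).

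Of 17 tested genes of cystine use and glutathione, 4 rose and 5 fell at day 6, beside 18.1% and 14.3% of all genes. Hmox1, which breaks down haem, rose 3.30-fold (adjusted p = 2.11e-05) and Ggt5, an ectoenzyme acting on glutathione conjugates, 2.61-fold (adjusted p = 0.0018), while Ggt6 fell to 0.626 and Cth to 0.644 times the day 0 level. At day 4 only Gclm of glutathione synthesis passed (-0.33, adjusted p = 0.0349). Of 32 tested genes of amino acid sensing upstream of mTORC1, 3 rose and 5 fell at day 6, and 4 rose and 1 fell at day 4. The rises at day 6 were a smaller share than the 18.1% of all genes, and the falls at day 6 and the rises at day 4 lay near the 14.3% and 12.1% of all genes. The rises at day 6 were Castor1, an arginine sensor (0.46), Lars (0.31) and Lamtor1 (0.27); Wdr59 fell most (-0.55). At day 4 Rragd (0.65), Castor1 (0.44) and Lars (0.30) rose and Sec13 fell (-0.18).

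Of 6 tested other carriers and partners, Slc66a1, the lysosomal exporter of cationic amino acids, rose (0.41, adjusted p = 0.0203) and Bsg, a partner of lactate carriers, fell (-0.27, adjusted p = 0.00189) at day 6. At day 2 no gene of the 6 lists passed; the lowest adjusted p was that of Xpnpep1 (0.31, adjusted p = 0.0641), and Asns, the asparagine synthetase of the ATF4 list, changed by 0.41 (adjusted p = 0.102).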

How the data were processed

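Colon RNA of 23 mice was measured on Affymetrix Mouse Genome 430 2.0 arrays. Each deposited value is a probe set's signal intensity, linear in scale, which the authors made with MAS5 per the submitters' processing notes; its version is not given in the sources used here. No further normalization was applied. Signals were analysed as log2(signal + 16), which understates changes of dim genes. Probe sets that exceeded their array's median on 5 or more arrays were kept, and the kept probe set with the highest mean stood for its gene. Gene symbols came from the platform annotation, which can be old.

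Testing used limma 3.58.1 (lmFit, eBayes with trend; R 4.3.3) in 1 fit of all 4 days. P-values of each of 5 comparisons were two-sided and adjusted by Benjamini-Hochberg over 12463 genes. The fit was tested on simulated data. Arrays of a day are separate animals. Mouse numbers recur across days and were not used as pairs in the main fit. Deviations from the day means correlated at a median of 0.045 over 17 same-number pairs of arrays and 0.0028 over 181 other pairs. The highest value was 0.703 among same-number pairs and 0.382 among the others. A link within single pairs was not tested. Members, lists and motifs were chosen with earlier results of these data known. Every member that passed is named; up to 8 rises and 8 falls per comparison with day 0 have values for every array or their lowest, median and highest, and each list up to 3 genes. Further list genes, Slc15a2 and the dim genes were named after their values were seen.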

Additional observations from a re-analysis of the deposited data

Results flagged for a closer look

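In 116 groups of arrays (29 genes that passed, 4 days), 5 held an array far from the others of its day, about the number that chance gives at 1 in 20. These were Slc15a1 on day 2 mouse 8 (477, with a median of 895 on the other arrays), Slc1a4 on day 6 mouse 7 (998, with 509), Slc38a10 on day 2 mouse 17 (3375, with 2344), Slc38a2 on day 0 mouse 1 (7159, with 5513) and Slc7a9 on day 6 mouse 1 (790.4, with 470.3).

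Among the genes too dim to be tested, 2 exceeded their day 0 arrays more than 2-fold and the array's own median on 1 array. Slc38a5 reached 335 on day 2 mouse 6, the array with the most pancreatic RNA, with a median of 18.6 on the other arrays. Slc38a4 reached 115 on day 6 mouse 21, with a median of 45.7 on the others. Neither was tested between days.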

How the results depend on the processing

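The 54 calls of carrier genes over the 5 comparisons were recomputed under 12 other settings and with each array left out; 35 kept their call with every array left out and 12 under every setting. All 54 were kept with a pseudocount of 1 or 64. With the hybridization control level as a covariate, 19 were kept: no gene passed at day 4 against day 0 or against day 2, and 6 at day 6 against day 0, while list genes numbered 1 at day 4 and 19 at day 6. Under the replicate block on mouse number 31 were kept, with 15 genes at day 6 against day 0, 10 at day 6 against day 4 and 0 at day 4 against day 2. Of 17 same-number pairs of arrays, 3 had deviations correlated over 0.1 (at most 0.703), beside 36 of 181 other pairs (at most 0.382). Median centring gave 8 list genes at day 4, and at day 6 17 higher and 25 lower, beside 28 and 20. It gave 11 carrier genes higher and 13 lower at day 6. With probe sets averaged, 2 calls turned: Slc38a1, day 6 against day 4 (0.089), and Slc38a10, day 6 against day 0 (0.055). With the covariate, Slc6a6, day 6 against day 0, turned (0.060). Leaving out 1 array gave 6 to 11 carrier genes at day 4, 20 to 25 at day 6, 1 to 7 at day 4 against day 2, 13 to 16 at day 6 against day 4 and 0 at day 2; list genes numbered 6 to 16 at day 4, 42 to 49 at day 6 and 0 at day 2. The causes were not tested. Signal over background limits what can be said of 27 genes; without the filter, Slc1a7 passed at day 6 (1.07, adjusted p = 0.0453).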
